A study of Mus musculus with 8 samples.

Results

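The 100 transcripts with the longest poly(A) tails at baseline were followed through a nanopore direct RNA sequencing series of mouse P19 cells. Baseline means the cells that received only the solvent DMSO for 24 h. Every nuclear transcript of the table's mRNA class with at least 60 reads in the pooled pair of 24 h DMSO libraries was ranked by the median tail of those reads. This gave 1069 ranked transcripts out of 27609 with reads, and the highest 100 (9.35% of the ranked) are the members. By annotation 98 of them are protein-coding transcripts, 1 (Eif4a1) is a retained intron and 1 (Vmn2r97) a processed transcript. They come from 96 genes, because Cnbp has 3 transcripts among them and Hnrnpk and Pcbp2 have a pair each. The members were chosen by their baseline tails, so these are given as a description only, and what can be asked is how the same transcripts behaved in the other 6 libraries.

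The poly(A) tail is added to an mRNA in the nucleus after cleavage of its 3′ end and is shortened in the cytoplasm by deadenylases. It is bound by the poly(A)-binding protein, and loss of the tail opens the way to decapping and decay. Abundant and stable mRNAs, such as those of ribosomal proteins, are known to carry fairly short tails in growing cells, so that a long tail does not by itself mark a stable or well translated message.

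P19 cells are a mouse embryonal carcinoma line with pluripotent properties. Undifferentiated cultures were given the compound MHY1485 (MHY), used to activate the mTOR pathway, at 10 µM, or DMSO alone, for 24 h or 48 h. There were 4 groups of 2 libraries, numbered 21 and 23 at 24 h and 24 and 25 at 48 h, and the numbers are names. All groups came from the same line with no genetic change. Per library, 178369 to 316546 reads were kept. All 12 pluripotency markers on a fixed list had reads, at 3499 to 4031 reads summed per 1000000 kept reads (RPM), against 294 to 449 for 12 neuronal markers, of which Dcx and Rbfox3 were at 0. Of 9 mesoderm and fibroblast markers 7 had reads, summed to 39.2 to 253 RPM, with Col3a1 and Pdgfra at 0. The 7 endoderm markers summed to 9.36 to 23.4 RPM, with Sox17, Afp and Sox7 at 0. The 48 h libraries were sequenced in other runs than the 24 h libraries, and no run held both times, so time and run cannot be told apart.

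Baseline medians of the members ran from 117.86 to 141.53 nt. Alyref, which encodes an mRNA export adaptor, stood highest at 142 nt, followed by Pfkl (141 nt), the liver-type phosphofructokinase of glycolysis, and Srsf6 (141 nt), an SR splicing factor. Ranks 4 to 10 went to reads named Vmn2r97 (138 nt) and D10Wsu102e (137 nt), to the cochaperone gene Ptges3 (137 nt), to Top2a (136 nt) for DNA topoisomerase II, to Canx (136 nt) for the membrane chaperone calnexin, to Cnbp (135 nt) for a nucleic acid binding protein, and to Bnip3 (134 nt) for a mitophagy receptor. The list ended with Hnrnpk at 117.93 nt, Bax at 117.87 nt and Cox6c at 117.86 nt. Just outside it stood Ddt and Dek, both at 117.85 nt, and Glo1 at 117.56 nt, so the boundary of the list separates transcripts with nearly the same value.

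Members were not the abundant transcripts of the ranking. Their median number of baseline reads was 88.5, against 116 over all ranked transcripts. Of the 443 ranked transcripts with under 100 baseline reads, 63 were members, whereas only 6 of the 145 with 500 or more were. A median over few reads is less precise, and the part that read number had in the ranking was not tested. The 6 members with 500 or more baseline reads were Vmn2r97, D10Wsu102e, Pou5f1, Pgk1, Pgam1 and Stmn1. Together with Hmgn2, Calm2, Cox6c and Pim2 they are the 10 members with the most reads, from 1036 (Pim2) to 5732 (Vmn2r97) over all libraries.

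The place where the reads end shows which mRNA 3′ end carries these tails. For each transcript the main end was taken as the centre of the first window of 11 nt that held the most alignment ends. This window held a median of 73.0% of a member's reads. For 43 of the 99 members found in the GENCODE vM21 annotation this main end lay over 50 nt before the annotated end (43.4%, against 38.0% of the ranked transcripts). In 41 of the 43 it lay within the annotated 3′ untranslated region, and in Noct and Vmn2r97 it did not. Alyref is an extreme case, with 73.4% of reads stopping 2388 nt short of an annotated untranslated region of 2732 nt. Pfkl reads stopped 959 nt short and Bnip3 reads 132 nt short. The 30 transcript bases that led up to the main end are printed for 9 members, picked as examples with AATAAA before the main end from those described at length here, with the polyadenylation hexamer in capitals. All lie in the 3′ untranslated region and are written 5′ to 3′ on the transcript strand, from GENCODE vM21 transcripts on GRCm38 (mm10).
Alyref, chr11:120594509-120594538, minus strand: tgccatAATAAAatagaaatgtgtgtagaa
Pfkl, chr10:77987906-77987935, minus strand: cttttttagaAATAAAgtcacctgtctaga
Ddx3x, chrX:13293954-13293983, plus strand: ggttttattaaAATAAAaagttgaactgca
Scd2, chr19:44306830-44306859, plus strand: tgttcatAATAAAatgaaatgatctgactg
Actb, chr5:142903131-142903160, minus strand: actgacttgagaccAATAAAagtgcacacc
Pgk1, chrX:106203665-106203694, plus strand: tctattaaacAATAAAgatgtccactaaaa
Pgam1, chr19:41918626-41918655, plus strand: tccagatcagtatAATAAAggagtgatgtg
Pou5f1, chr17:35510738-35510767, plus strand: tttgttcttaAATAAAgactgggacacaca
Bnip3, chr7:138890968-138890997, minus strand: ggtgtgctaaAATAAAagtgacattttaac

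In these examples the hexamer began 16 to 24 nt before the main end. The main end is the centre of a window, so reads can stop a few nt after it and the true distances can be longer. In Pgam1 the main end was at position 1770 and the median read end at 1775. D10Wsu102e, which is not shown, had neither AATAAA nor ATTAAA near its main end, and 19.7% of its reads stopped in that window. Searched on the transcript strand from 40 bases before to 5 bases after the main end, AATAAA was found in 77 of 99 members (77.8%) and in 76.2% of the ranked transcripts, and AATAAA or ATTAAA in 91 of 99 (91.9%) and in 91.0%. The shares in members and ranking were close.

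The name of a member is not in every case the source of its reads. Reads named Vmn2r97 began at position 1664 of a 3711-nt transcript and none came within 50 nt of its annotated end. Of the alignments named Vmn2r97, 51.2% passed the tail quality filter, against a median of 85.3% over members and 86.8% over the ranked transcripts. Reads named D10Wsu102e began at position 94739 of a transcript annotated with 123179 nt. The segment of Vmn2r97 that carried the reads was 94.5% identical to one in D10Wsu102e over 920 nt. Gm10184 is 99.9% identical to Kpna2 over 1955 nt, with 5.32% of its reads at a mapping quality of 10 or more. In all, 12 of 100 members had a copy of at least 90% identity over 80% of the segment in a transcript of another gene, against 24.4% of the ranked transcripts. For 10 of the 12 the best copy lay on the same strand (against 246 of the 1069 ranked transcripts). Of these, Cdc20, Smarca5, Actb and Nap1l1 had 97.8% or more of their reads at a mapping quality of 10 or more, while for Vmn2r97, D10Wsu102e, Gm10184 and Hmgn2, with 5.32% to 68.1%, the gene that produced the reads is uncertain. Ddx5 and Taldo1 lay between, with 86.3% each. For Noct, with Slc38a6 (98.3% identity over 1393 nt), and for Serf2, with Fam221b (100%), it lay on the opposite strand. Canx and Hnrnpu had nearly no reads of mapping quality 10 or more, and 14 members had fewer than 50% of their reads at a quality of 10 or more (14.0%, against 20.1% of the ranked transcripts).

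The long tails of the members were found again in the libraries that had not chosen them. In the 6 other libraries the median over the members lay between 109.9 and 117 nt, and it was 15.7 to 18.8 nt above that of the 869 ranked transcripts outside both ends of the ranking. In the selecting libraries the same gap was 22.3 and 24.1 nt. The lowest 100 of the ranking stayed 10.8 to 13.4 nt below the middle in the other libraries. As group means, the members stood at 123 ± 2.80 nt (SD, n = 2) in DMSO at 24 h, at 116 ± 0.359 nt in MHY at 24 h, at 114 ± 0.129 nt in DMSO at 48 h and at 112 ± 3.11 nt in MHY at 48 h. One library stood apart for all transcripts, since in MHY 48 h replicate 24 the middle of the ranking was at 91.4 nt, against 94.9 to 100.9 nt in the other 7 libraries.

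**Figure D1:**
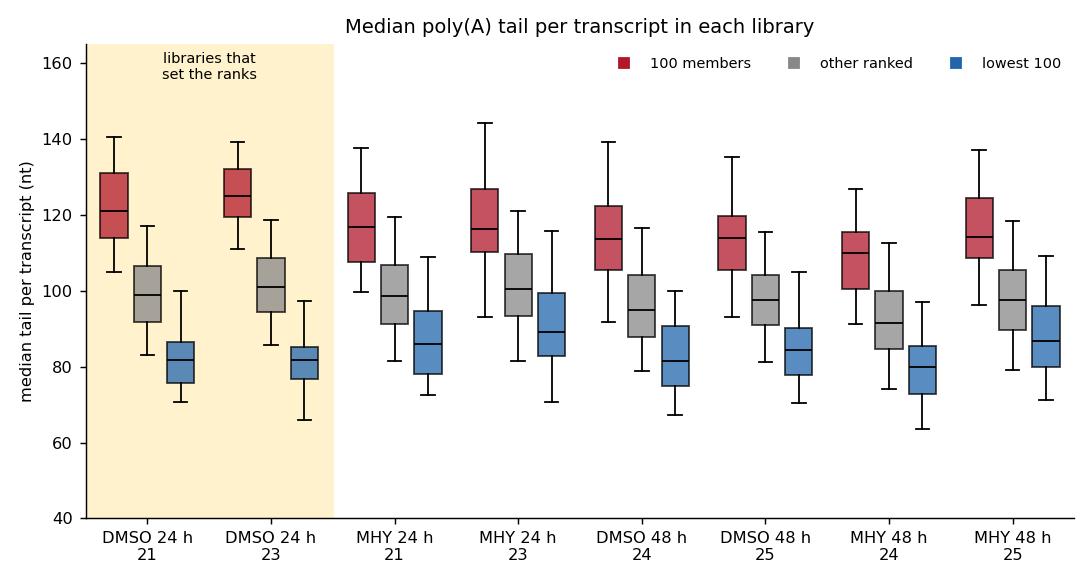
Median tail length per transcript (nt, vertical axis) in each of the 8 libraries for the 100 members, the 869 other ranked transcripts and the lowest 100, with boxes from the lower to the upper quartile and whiskers from the 5th to the 95th percentile. The shaded pair of libraries chose the members, and in the 6 others the median of the members is 15.7 to 18.8 nt above the middle group.

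Counted by transcript, 37 to 48 of the 100 members were again among the highest 100 in each of the 6 other libraries, where 9.35% of all ranked transcripts are by construction. Between 88 and 95 members lay above the library's median. Of the lowest 100, by comparison, 0 to 3 reached the highest 100 and 10 to 24 lay above the median. With the reads of the 6 libraries pooled, 99 of 100 members stood above the ranked median of 96.7 nt, against 50% of the ranked transcripts. The exception was the Eif4a1 transcript at 96.05 nt. The 95% interval of the pooled median lay wholly above the ranked median for 80 members and included it for 20.

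The pooled median in the other libraries was below the baseline value for 89 members and above it for 11, and over the members it was 113 nt. The median of all ranked transcripts was lower too at 48 h, at 91.62 to 98.02 nt, against 98.995 and 101.03 nt in the selecting libraries. The rate at which reads passed the pore, which the tail estimate uses, also differed between the times. Its median over reads of all ranked transcripts was 120.48 nt per second at 24 h and 115.85 at 48 h. Its part was not tested. Members were picked for high values in 2 libraries, so their lower values elsewhere are not read as shortening. Nup85, a nuclear pore subunit, went from 134 nt at baseline to 102 nt, and Chmp4b, of the membrane-remodelling ESCRT machinery, from 126 to 98.6 nt. Both were picked as examples after their values were seen. Across the 1069 ranked transcripts the Spearman correlation of median tails between libraries was 0.451 to 0.606, a description over points that share the library.

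**Figure D2:**
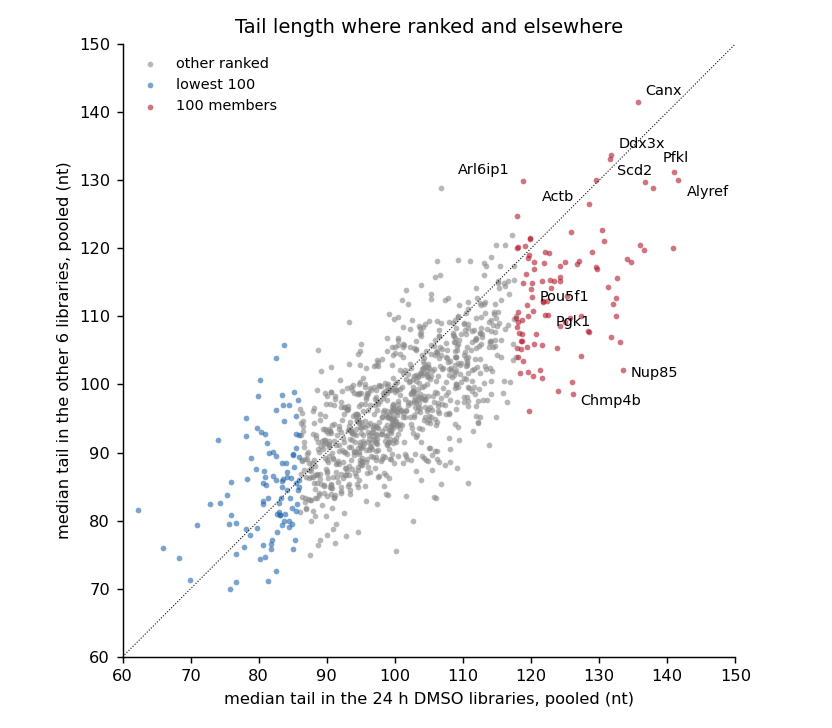
Median tail at baseline (nt, horizontal axis) against the median in the pooled reads of the 6 other libraries (nt, vertical axis), with one point per ranked transcript with members red, the lowest 100 blue and the rest grey. The dotted line marks equal values, and 89 of the 100 members lie below it.

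Among the highest 100 in each of the 6 other libraries were 10 members, namely Alyref, Pfkl, Vmn2r97, D10Wsu102e, Actb, Canx, Ddx3x, Scd2, Hnrnpu and Arl6ip1. Ddx3x encodes an RNA helicase of translation initiation. Its median tails were 131 and 135 nt in the DMSO libraries at 24 h, 129.7 and 135 nt in MHY at 24 h, 153 and 126 nt in DMSO at 48 h, and 137 and 129 nt in MHY at 48 h. The tails of Ddx3x in the other libraries were thus as long as those that chose it, with pooled medians of 132 nt at baseline and 134 nt elsewhere. Scd2, a desaturase that makes monounsaturated fatty acids, had 121 and 143 nt, then 141 and 146 nt, then 131 and 134 nt, and then 114 and 141 nt, in the same order of libraries. The lowest of these was MHY 48 h replicate 24. Actb, cytoplasmic beta-actin, had 121, 138, 131, 124, 127, 131, 123 and 122 nt, a range of which both ends lay in DMSO at 24 h.

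Arl6ip1, a membrane-shaping protein of the endoplasmic reticulum, entered the list at rank 82 and was longer elsewhere than at baseline, with 119 nt at baseline and 129.9 nt in the other libraries. Its library values were 124 and 118 nt in DMSO and 126 and 125 nt in MHY at 24 h, and 139 and 126 nt in DMSO and 132 and 124 nt in MHY at 48 h. Canx had the highest pooled median of all members in the other libraries, at 141 nt with a 95% interval of 129 to 148 nt. Its library values were 145, 135, 149, 144, 142, 145, 133 and 124 nt, so the lowest was MHY 48 h replicate 25. Only 0.37% of Canx reads had a mapping quality of 10 or more. Alyref had 139 and 149 nt in DMSO and 144 and 145 nt in MHY at 24 h, and 132 and 133 nt in DMSO and 121 and 128 nt in MHY at 48 h. All 4 of its values at 48 h lay below all 4 at 24 h, and runs differed between the times. Pfkl had 127, 143, 142.5, 129, 124, 135, 123 and 128 nt in the same order, with overlapping groups.

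Other members of the first 10 ranks held their place less well. Srsf6 had 127 and 145 nt in the selecting libraries but 121, 112, 113, 117, 127 and 127 nt in the others. Top2a ranged from 91.9 nt in MHY 24 h replicate 23 to 138 nt in DMSO 24 h replicate 23, and the other MHY library at 24 h stood near the top as well. Ptges3 lay at 153 and 127 nt in DMSO and 149 and 125 nt in MHY at 24 h, and at 127, 112, 123 and 117 nt at 48 h. Bnip3 lay between 109.97 and 141 nt over the 8 libraries, and the first Cnbp transcript between 109.8 and 135 nt.

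The members with the most reads are shown next. Pou5f1, the pluripotency factor Oct4, had 120.4 and 119.6 nt in DMSO and 117 and 118 nt in MHY at 24 h, and 112 and 114 nt in DMSO and 107 and 109.9 nt in MHY at 48 h. Pgk1, phosphoglycerate kinase of glycolysis, had 124 and 121 nt, then 110.2 and 107 nt, then 112 and 116.5 nt, and then 93.5 and 109.9 nt. At 48 h the MHY libraries of both genes lay below the DMSO libraries, while the 24 h DMSO values chose the members. Pgam1, phosphoglycerate mutase, had 118, 123, 113, 117, 116, 117, 112 and 108 nt, with MHY below DMSO at 48 h. Stmn1, a microtubule destabiliser, had 117, 121, 115, 117, 115, 115, 110.1 and 111 nt, with MHY below DMSO at 48 h. Hmgn2, a nucleosome-binding protein, lay between 112 and 127 nt and Calm2, calmodulin, between 97.8 and 134 nt. Their groups overlapped at 48 h. Cox6c, a subunit of cytochrome c oxidase, had 116 and 114 nt in DMSO and 104 and 109 nt in MHY at 48 h, with MHY below DMSO. Pim2, a survival kinase, went the other way, with 109.6 and 116 nt in DMSO and 120.1 and 133 nt in MHY at 48 h. Groups of 2 libraries often separate in this way. At 48 h the treatments separated with MHY lower in 19 of 100 members and in 224 of the 1069 ranked transcripts. They separated with MHY higher in 11 members and 128 ranked transcripts. No member passed the test for tail length at 48 h given below, so these orders are descriptions only.

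By function the members were a mixture, and 54 of 100 belonged to one of 25 gene lists. Cell cycle and DNA replication genes made up the largest number, 11 of the 27 ranked on that list. They include Cdk1, the mitotic kinase, with its cyclins Ccnb1, Ccnb2 and Ccna2, Cdc20, which activates the anaphase-promoting complex, and Mcm6 of the replicative helicase. Their pooled medians in the other libraries ran from 104 to 120.5 nt, and 20 of all 27 on the list lay above the ranked median. Cdc20 had 125 and 122 nt in DMSO and 112 and 117 nt in MHY at 24 h, and 123, 119, 117 and 103 nt at 48 h. Cdk1 lay anywhere from 102 to 137 nt and Mcm6 from 87.3 to 127 nt, and their groups overlapped.

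Genes of hnRNP and SR splicing factors gave 9 members of 51 ranked, with 40 of the 51 above the ranked median in the other libraries. Hnrnpu, a nuclear matrix-associated RNA-binding protein, was the most even, at 118 to 123 nt in all 8 libraries. Hnrnpa0 lay between 105 and 119 nt. Srsf2, an SR protein, lay at 117.6 to 127 nt in 6 libraries and at 101 and 97.8 nt in MHY at 48 h.

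Glycolysis and glucose transport gave 4 of 25, namely Pgk1, Pgam1, Pfkl and the neuronal-type glucose transporter Slc2a3, and 20 of the 25 lay above the ranked median. Slc2a3 had 117, 119, 117, 111, 124, 123, 118 and 115 nt. The fatty acid synthesis genes Scd2 and Fasn were 2 of 5 ranked on their list. Fasn, fatty acid synthase, lay at 120 and 136 nt in DMSO and 136 and 135 nt in MHY at 24 h, and at 106, 121, 124 and 120 nt at 48 h. Cytoskeleton genes gave 4 of 34, vesicle trafficking genes 4 of 24, ubiquitin and proteasome genes 4 of 53 and membrane transporters 3 of 26.

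Genes of ribosomal proteins were absent from the list. No ribosomal protein transcript of 126 ranked was a member, 23 of them lay above the ranked median in the other libraries, 20 were in the lowest 100 and 106 in the middle. Translation factors gave 2 members of 39 ranked, Eif4b and Eif4a1, with 6 in the lowest 100 and 16 above the ranked median. Mitochondrial ribosomal protein and import genes gave 0 of 41 and nuclear oxidative phosphorylation genes 1 of 81, Cox6c. Of 119 ranked transcripts on the list of terminal oligopyrimidine (TOP) mRNAs, whose translation mTOR controls, only Eif4b and Nap1l1 were members. The study took that list from published work.

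The members were longer RNAs with longer 3′ untranslated regions. Their median annotated length was 2108 nt, against 1506 nt in the middle of the ranking and 1137 nt in the lowest 100. The 3′ untranslated region up to the main end had a median of 464 nt in members, 234.5 nt in the middle and 144 nt in the lowest 100. Over the 1037 ranked transcripts with a value, its length had a Spearman correlation of 0.38 with the median tail in the other libraries, a description over transcripts that share libraries. The mean rate at which a read passed the pore, which the tail estimate uses, moved with the tail too (0.346), and its median was 118 nt per second in members and 116 nt per second in the middle. Its part in the result was not tested. GC content of the used region had a correlation of 0.008.

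Sequence motifs of the untranslated region were counted over all regions and among regions of similar length. Searched on the transcript strand, the AU-rich pentamer ATTTA was in 54 of 96 members with a used region (56.2%) and in 37.2% of the ranked transcripts. Among regions of 300 to 1000 nt it was in 35 of 51 members (68.6%) and in 58.7% of the ranked transcripts. Per 1000 nt both had 1.66, but D10Wsu102e, with a region of 94607 nt of which its reads span little, carried 141 of the members' 256 matches. Without it, left out after its values were seen, members had 1.92 and the ranking 1.70. The Pumilio motif TGTANATA was in 23 of 96 members (24.0%), against 7.52% of the ranked transcripts, and per 1000 nt there were 0.233 in members and 0.200 in the ranking. Without D10Wsu102e these were 0.416 and 0.221. Among regions of 300 to 1000 nt the Pumilio motif was in 10 of 51 members (19.6%) and in 30 of 346 ranked transcripts (8.67%). A match shows the letters only, and binding was not measured.

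Another transcript of the same gene was ranked for 9 member genes, 20 transcripts in all. Of these 13 were members, and the pooled medians of the other 7 in the other libraries were above the ranked median, though the 95% interval of the second Swi5 transcript (91.7 to 109.7 nt) included it. In the Hnrnpu and Swi5 pairs nearly no reads had a mapping quality of 10 or more, so their reads cannot be assigned between the transcripts. The Eif4a1 member, annotated as a retained intron, had 119.7 nt at baseline and 96.05 nt elsewhere, while the coding Eif4a1 transcript with far more reads had 109 nt and 106 nt. Of the member's reads 0.61% had a mapping quality of 10 or more, against 91.7% for the coding transcript. The 3 Cnbp transcripts had 118, 122 and 118 nt elsewhere, with overlapping intervals, and 56.1%, 9.23% and 14.7% of their reads had a mapping quality of 10 or more. The Hnrnpk pair had 117 and 125 nt and the Pcbp2 pair 119 and 107 nt. Hnrnpu, Nap1l1, Nasp, Prdx2 and Swi5 each had one member, and their other transcripts had 100.3 to 122 nt elsewhere.

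At the level of single reads, long tails predominated. In DMSO at 48 h, 70.1% ± 0.793 (SD, n = 2) of member reads had a tail over 90 nt and 1.57% ± 0.0283 one under 30 nt. In the middle of the ranking these shares were 54.2% and 2.36%. Tails over 200 nt made up 9.79% of member reads and 3.94% of the others. In MHY at 48 h, 68.3% ± 3.53 of member reads were over 90 nt and 2.10% ± 0.445 under 30 nt, and the spread between the MHY replicates exceeded the difference in the first of these shares. These shares, and the medians of member reads given below, pool reads, so members with more reads weigh more in them.

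**Figure D3:**
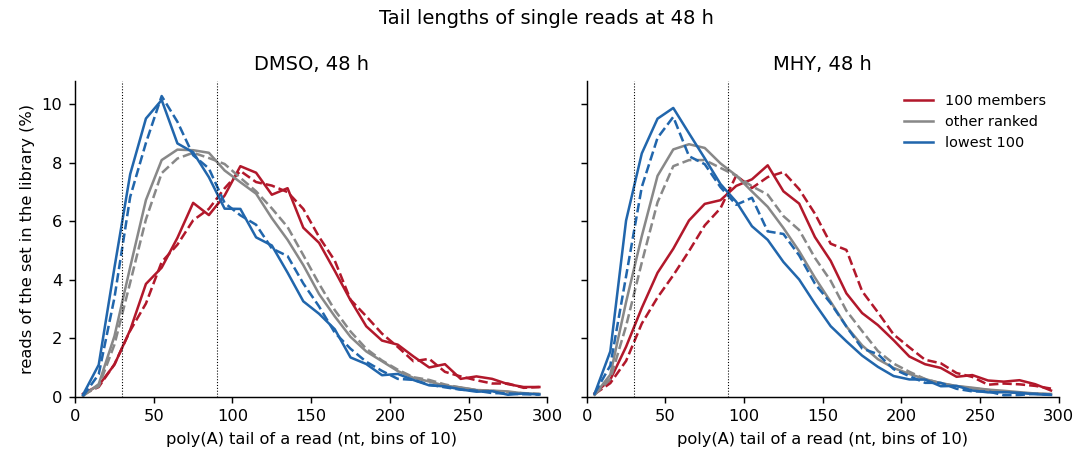
Percent of reads per 10-nt bin of tail length (vertical axis) against tail length in nt (horizontal axis) for members (red), other ranked transcripts (grey) and the lowest 100 (blue), in DMSO and MHY at 48 h, with replicate 24 solid and replicate 25 dashed. The dotted lines mark 30 and 90 nt, and in DMSO 70.1% of member reads lie right of 90 nt against 54.2% of the others.

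At 24 h the members were shorter in MHY than in DMSO, but the DMSO libraries of this comparison chose the members, so these are values without a test. In the 3 runs that held both treatments the median of member reads in MHY minus that in DMSO was -4.20, -5.40 and -9.34 nt. For reads of the middle of the ranking it was between -1.78 and -1.25 nt, and for the lowest 100, which were chosen for low DMSO values, between 2.01 and 3.32 nt. The choice of members and an effect of the compound cannot be told apart here.

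The 48 h libraries played no part in the choice, and there no member passed the test for a difference in tail length between MHY and DMSO. All 100 had at least 10 reads in every library, and limma, fitted to log2 median tails of 1866 transcripts, called 0 of 100 members at an adjusted p under 0.05. Over all transcripts it called 0.643% (12), all shorter in MHY, or 1.12% of the ranked transcripts. At an unadjusted p under 0.05 there were 4 members, all shorter, and 159 of the 1866 transcripts, 141 of them shorter. Fitted to mean tails, 2 members were called shorter, and the share of all transcripts called in that fit is not given here. The median difference over members was -0.04 on the log2 scale, the same as over all transcripts, and 63 of 100 were negative against 61.1% of all. Without MHY replicate 24 the median over members was 0.01. Within the 2 runs at 48 h the median of member reads in MHY minus that in DMSO was -2.59 and -1.78 nt, and that of the middle of the ranking -3.64 and -3.11 nt. Such medians pool reads, and the mix of members in them differed between treatments. Vmn2r97 had 2597 to 2865 RPM in DMSO and 3393 to 3970 in MHY at 48 h, while Pgk1 had 2031 to 2429 and 899 to 1224. A change in this mix and one in tail length were not told apart. The median standard error of a member was 0.147, so that small differences in single members were not detectable at this depth.

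The members with the lowest p among the shorter ones were Srsf2, Pgk1 and D10Wsu102e. Srsf2 had 122 and 127 nt in DMSO and 101 and 97.8 nt in MHY at 48 h, a difference of -0.33 ± 0.0928 (SE) with an adjusted p of 0.103. Its groups did not overlap, as was so in this direction for 19 of 100 members and 224 of the 1069 ranked transcripts, and in the opposite direction for 11 members and 128 ranked transcripts. Pgk1 differed by -0.18 ± 0.0579 (adjusted p = 0.183) and D10Wsu102e by -0.12 ± 0.038 (adjusted p = 0.197). Among the longer ones the lowest p belonged to Bax, the apoptosis effector, Cdc42, a small GTPase, and Skp1a, a ubiquitin ligase subunit. Bax had 109 and 91.6 nt in DMSO and 116 and 116 nt in MHY, a difference of 0.24 ± 0.139 (adjusted p = 0.672). Cdc42 differed by 0.19 ± 0.11 (adjusted p = 0.685) and Skp1a by 0.20 ± 0.134 (adjusted p = 0.775).

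Of the read classes, the share over 90 nt fell in 1 member, D10Wsu102e, and 0.804% of all transcripts and 1.41% of the ranked ones were called, all lower in MHY. Its share was 82.4% and 84.3% in DMSO and 81.6% and 83.8% in MHY at 24 h, and 80.4% and 85.2% in DMSO and 74.6% and 78.3% in MHY at 48 h. Both MHY libraries at 48 h lay below the other 6, with log2 odds -0.63 ± 0.13 (SE) against DMSO at 48 h (limma, adjusted p = 0.00778). The call was lost with reads of mapping quality of at least 10 (adjusted p = 0.341), without DMSO replicate 25 (0.987) and without MHY replicate 24 (0.618). A fit that leaves out a library has a lone sample in that group, which is assumed to vary like the other groups. For the share under 30 nt limma called 0 of 100 members, against 0.375% of all transcripts and 0.656% of the ranked ones, all higher in MHY, and 6 members were higher at an unadjusted p under 0.05, against 176 of the 1866 transcripts.

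The number of reads changed for 6 members at 48 h, all lower in MHY, where 0.78% of all 4104 transcripts tested and 2.62% of the ranked ones were called lower. They were Pgk1, Pfkl, Pgam1, Bnip3, Scd2 and Stmn1, and no member was called higher, against 0.292% of all and 0.748% of the ranked transcripts. In either direction 1.07% of all and 3.37% of the ranked transcripts were called. In bulk RNA, fewer cells of a type and less RNA per cell cannot be told apart. Pgk1 had 2219 and 2084 RPM in DMSO and 1920.2 and 1912 in MHY at 24 h, and 2031 and 2429 in DMSO and 899 and 1224 in MHY at 48 h. It fell 2.30-fold at 48 h (log2 difference -1.20 ± 0.132, limma voom, adjusted p = 4.32e-11), and both MHY libraries at 48 h lay below the other 6. Pfkl had 178 and 217.5 in DMSO and 200.02 and 286 in MHY at 24 h, and 225 and 272 in DMSO and 99.5 and 145 in MHY at 48 h. It fell 2.27-fold at 48 h (-1.18 ± 0.243, adjusted p = 0.00102).

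Pgam1 had 1952 and 1910.4 RPM in DMSO and 1707 and 1620.2 in MHY at 24 h, and 1544 and 2031 in DMSO and 1066 and 1453 in MHY at 48 h, a fall of 1.56-fold at 48 h (-0.64 ± 0.135, adjusted p = 0.00162). Bnip3, which like the glycolytic genes is a known target of hypoxia-inducible factor, had 340.2 and 290.0 in DMSO and 262 and 229.9 in MHY at 24 h, and 253 and 259 in DMSO and 116 and 177.5 in MHY at 48 h. It fell 1.96-fold (-0.97 ± 0.229, adjusted p = 0.00908). The MHY libraries of both genes were the lowest pair of the 8.

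Scd2 had 272 and 189 RPM in DMSO and 249 and 162.6 in MHY at 24 h, and 276 and 360.1 in DMSO and 157 and 262 in MHY at 48 h. It fell 1.74-fold at 48 h (-0.80 ± 0.215, adjusted p = 0.0351), where the higher MHY library came close to the lower DMSO one, and the MHY values at 48 h overlapped those of both groups at 24 h. Stmn1 had 1036 and 1359 in DMSO and 1102 and 1239 in MHY at 24 h, and 1137 and 1159 in DMSO and 741 and 925 in MHY at 48 h, and fell 1.48-fold (-0.57 ± 0.146, adjusted p = 0.0242). In each of the 6 genes the groups at 48 h did not overlap, as was so in this direction for 21 of 100 members and 22.1% of the ranked transcripts. Leaving out DMSO replicate 25 or MHY replicate 24 leaves a lone library in that group, which is again assumed to vary like the others. In those fits the calls of these genes other than Pgk1 did not hold. The shares of all transcripts called there are not given here.

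**Figure D4:**
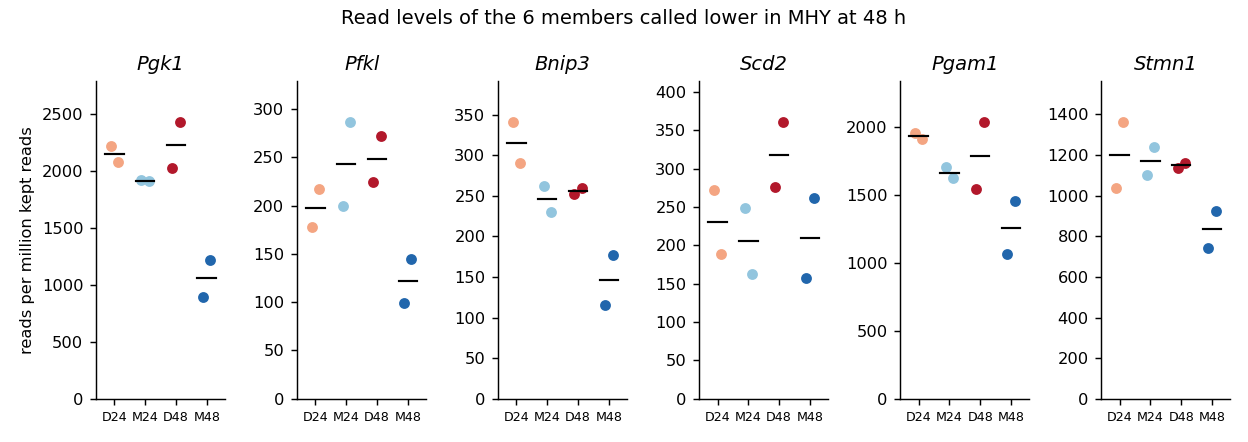
RPM (reads scaled to 1000000 kept reads, vertical axis) of the 6 members called lower in MHY at 48 h, in DMSO and MHY at 24 h (D24, M24) and 48 h (D48, M48), with points for libraries and bars for the mean of 2. In every gene the MHY points at 48 h are lower than the DMSO points at 48 h, such as 899 and 1224 against 2031 and 2429 in Pgk1.

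Of these 6, 3 are glycolytic enzymes. On the list of glycolysis and glucose transport 14 of 33 transcripts tested fell in MHY at 48 h and 0 rose, where 0.78% of all transcripts and 2.62% of the ranked ones fell. Ldha, Tpi1 and Slc16a3 each count with a pair of transcripts among the 14. The list had a median log2 difference of -0.75, against -0.01 over all transcripts. Slc2a3, the 4th member on that list, differed by -0.35 (adjusted p = 0.437). Tail length on the same list was called for 0 of 26 transcripts. Over the 100 members the median log2 difference in reads was -0.04, and 55 were negative, against 50.8% of all transcripts tested and 65.0% of the 869 in the middle of the ranking. With total reads as size factors that median was 0.04, and without MHY replicate 24 it was 0.03.

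**Figure D5:**
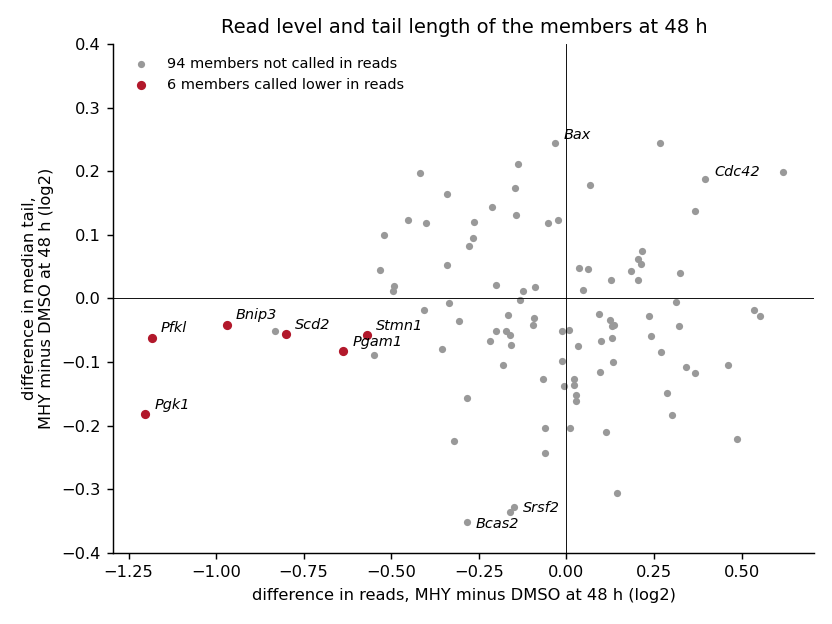
Difference in log2 reads (MHY minus DMSO at 48 h, horizontal axis) against the difference in log2 median tail (vertical axis) for the 100 members, with the 6 members called lower in reads in colour and the other 94 in grey. The 6 reach a log2 difference in reads of -1.20, while no member was called for tail length.

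Between MHY at 48 h and MHY at 24 h limma called 0 of 100 members for tail length, where 1.34% of all and 2.34% of the ranked transcripts were called, all shorter at 48 h. The median difference over members was -0.06, against -0.08 over all, and 71 of 100 members were negative, against 71.2%. At an unadjusted p under 0.05 there were 6, all shorter at 48 h, against 197 of the 1866 transcripts, 186 of them shorter. Among the 6 was Pou5f1 (-0.12, adjusted p = 0.19). The tail estimate uses the rate at which reads pass the pore. The median rate of member reads was 120.48 nt per second in MHY at 24 h and 115.85 in MHY at 48 h. The part of this shift in the difference was not tested.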

How the data were processed

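Poly(A)-selected RNA of undifferentiated P19 cells (2 libraries in each of 4 groups, described by the study as biological replicates) was read by nanopore direct RNA sequencing. The authors aligned reads to GENCODE vM17 transcripts with minimap2 (2.20 in the submitters' processing notes) and estimated tails with Nanopolish. The deposited table has a row per alignment with tail length (nt), translocation rate (nt per second) and alignment positions, a mapping quality score and a barcode confidence fraction. It held 2439710 alignments of 2364352 reads. Rows that passed the tail quality filter on mRNA, without pseudogenes and mitochondrial genes, gave 1926118 read and transcript pairs. Replicates differed by more than counting noise (chi-square per degree of freedom 1.21 to 1.56).

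Median tails and shares (0.5 read added to each side) per transcript and library were tested with limma 3.58.1 in R 4.3.3, weighted by reads, for transcripts that had 10 or more reads in every library. Reads were tallied per transcript, since the table gives no counts, and tested with limma voom (at least 10 reads in 2 libraries, median-of-ratios size factors). P-values were adjusted by Benjamini-Hochberg over all transcripts tested. Copies were sought with blastn 2.17.0 in GENCODE vM21. Intervals of medians have a level of 95% and cover sampling of reads only. The fits were also run on simulated data, with the tails of each transcript drawn from its reads pooled over all libraries. Apart from the changes put in, such tails differ between libraries by read sampling alone. The error rate of the tail tests was therefore not measured by them. The members and lists were chosen with earlier results of these data known. Named members were ranks 1 to 10 and 98 to 100, the 10 with most reads, those called at 48 h or with the 3 lowest p in each direction, up to 10 that stayed highest in the 3 other groups, up to 4 per list with 3 or more members, and those with another ranked transcript.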

Additional observations from a re-analysis of the deposited data

How the results depend on the processing

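Of the values that answer a comparison, 152 stayed close to the reported one and 29 moved under an alternative. A median difference counted as close when it moved by less than the SD between replicate libraries. That SD was 0.04 for log2 tails and 0.0661 for log2 reads, against reported medians of -0.04 in each. Such medians could nearly vanish or change sign and still count as close. Counts of calls that stayed at 0 also counted as close. No member called as reported changed direction, but medians over members, which carry no test, changed sign as given here. The shares of all transcripts called in the alternative fits are not given. The counts of members called in them are thus not weighed against a background. For members called shorter in MHY at 48 h (0 as reported), the mean tail gave 2, and leaving out one library gave 0 to 2. The median difference in tail length of -0.04 became -0.0004 when centred on each library's median, an alternative added after seeing the data, and lay between -0.0576 and 0.0137 without one library, the latter without MHY replicate 24, which also took the median log2 odds over 90 nt from -0.05 to 0.09. For MHY at 48 h against 24 h, leaving out one library gave 0 to 1 calls. The count of members with a lower share over 90 nt (1) was 0 with mapping quality of at least 10, with no weights, with 48 h libraries alone and without the 12 members with a copy, 2 with at least 20 reads, and 0 to 5 without one library. For reads, 2 members were called higher with total reads as size factors and 2 without the filter, 0 to 2 without one library, and 3 were called lower with limma trend and 1 to 8 without one library. The median difference in reads was 0.0413 with total reads and between -0.0973 and 0.0251 without one library. The replicate block gave 2 members with a lower share over 90 nt and 2 with higher reads. Library numbers were not shown to pair (correlations of deviations 0.0084 and 0.0556 for tails, -0.0108 and 0.1149 for reads). The gap of the members in MHY at 48 h over the rest of the ranking, 18.9 nt, was 17.3 nt with a minimum of 100 reads, 20.5 nt for the highest 50, 15.8 nt for the highest 200 and 15.96 nt when ranked on reads of mapping quality of at least 10. These rules shared 37 and 72 members with the list for the minimum of 100 reads and the mapping quality. The 37 are the members with 100 or more baseline reads, which that rule keeps by construction. Of the 6 members with fewer reads, Pgk1 was called under all 8 alternatives, and the others lost the call in 2 to 4. The cause was not tested.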
